A study of Mus musculus with 2 samples.

Results

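Glycosaminoglycans are long sulfated sugar chains that are built on the core proteins of proteoglycans in the Golgi apparatus. A short linker is laid down on the core protein, and the chain is then extended either as chondroitin, which can be converted to dermatan, or as heparan. Sulfotransferases place sulfate at set positions of the growing chain, using a sulfate donor and nucleotide sugars that the cytosol supplies. In cartilage, chondroitin sulfate on aggrecan holds water and lets the tissue resist load, whereas heparan sulfate on cell surface and pericellular proteoglycans binds growth factors of the hedgehog, FGF and BMP families. The 37 genes described here encode the enzymes and transporters of these steps. They were chosen by gene name, and every probe set annotated to 1 of them alone was used. A probe set is several short probes that read 1 stretch near the 3′ end of a transcript. On the array 35 of the 37 genes had such a probe set, out of 18193 named genes, with 70 probe sets out of 45037 in all. *Xylt1* and *Ndst1* were not analysed here.

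The study compared SFZ cells, from the superficial zone of articular cartilage, with costal chondrocytes (CC), which were released from ribs by collagenase. Both came from ICR mice at postnatal day 4 and were cultured in DMEM with 10% FBS, with no genetic change and no treatment. RNA of each cell type was hybridized to 1 Affymetrix mouse genome array, so the comparison has no replicate check and no p-value is given. Zone of the cartilage and place in the body differ together between the samples and cannot be told apart, and neither can fewer cells of a type and less RNA per cell.

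Values are MAS5 signals on a linear scale as deposited, and each ratio is SFZ signal over CC signal. The brightest probe set on the mean of both arrays stood for a gene. A gene is called higher in a cell type here where its signal there was over 100 and exceeded the other signal by more than 2-fold, the thresholds that the study set for SFZ cells. The background level, taken from odorant, taste and vomeronasal receptor probe sets, was 28.2 for SFZ cells and 26.2 for CC. The only measure of error within the arrays is the spread between different probe sets of 1 gene. Over 3059 genes with at least 2 probe sets above 100 on both arrays, the pooled SD of the log2 ratio within a gene was 0.21, a factor of 1.15. This spread does not include differences between animals, cultures or labelling reactions. Among all genes above background the median log2 ratio was -0.21, so the middle gene was slightly dimmer in SFZ cells.

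Both samples carried cartilage genes, and the summed signals of muscle, adipocyte, leukocyte and fibroblast markers were higher on the CC array. Of 15 chondrocyte markers 14 were above background on both arrays and *Chad* in SFZ cells alone, with a summed signal of 81462 in SFZ cells and 57920 in CC. Of 13 skeletal muscle markers 11 were called higher in CC, with summed signals of 278 and 30081 from SFZ cells and CC. The satellite cell genes *Myf5* and *Pax7* stayed under background on both. Of 5 measured adipocyte markers 4 were higher in CC, with sums of 1014 and 10977. Of 8 leukocyte markers 4 were higher in CC, with sums of 548 and 2198, and of 8 fibroblast and perichondrial markers 5 were, with sums of 19331 and 30913. None of the endothelial markers reached 100. The part of such cells in the values given next was not tested. Of 5 measured genes of hypertrophic chondrocytes, *Col10a1*, the collagen of that stage, was at 1254 and 126, whereas *Mmp13*, a collagenase, was at 239 and 3784 and *Ibsp*, a bone matrix gene, at 15.5 and 375. The superficial zone marker *Prg4*, encoding lubricin, was at 323 and 73.6, while 2 of the 7 genes of its list were called higher in CC.

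All 35 measured genes were above background on at least 1 array, 32 of them on both, and 30 had a signal over 100 on at least 1 array. Of the 35 genes 24 lay within a factor of 1.5. With the limit at 1.5-fold, 2 of the 30 genes passed toward SFZ cells and 7 toward CC. Of the 8986 genes of the array with a signal over 100, 527 and 1901 passed. These counts do not show that the set differed less than other genes. At 2-fold, only the chondroitin synthase gene *Chsy3* was called higher in SFZ cells. For CC the calls were the sulfotransferase genes *Chst15* and *Ust* alone. Over all genes, 1.18% were called higher in SFZ cells and 5.41% in CC. Among the 8986 genes with a signal over 100, which were those able to pass, the shares were 2.38% and 11.0%, and 1 and 2 of the 30 such genes of the set are read against these. Over all genes the calls numbered 214 and 985, and became 333 and 754 after scaling to equal medians and 376 and 685 after quantile normalization. The calls within the set were the same 3 genes under either scaling. None of the 3 was called when each gene was taken at the median of its probe sets or when all its probe sets had to pass, and *Ust* was not called with 64 added to both signals. The median log2 ratio of the set was -0.20, beside -0.21 for all genes, and the medians of its branches lay on either side of this.

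**Figure D1:**
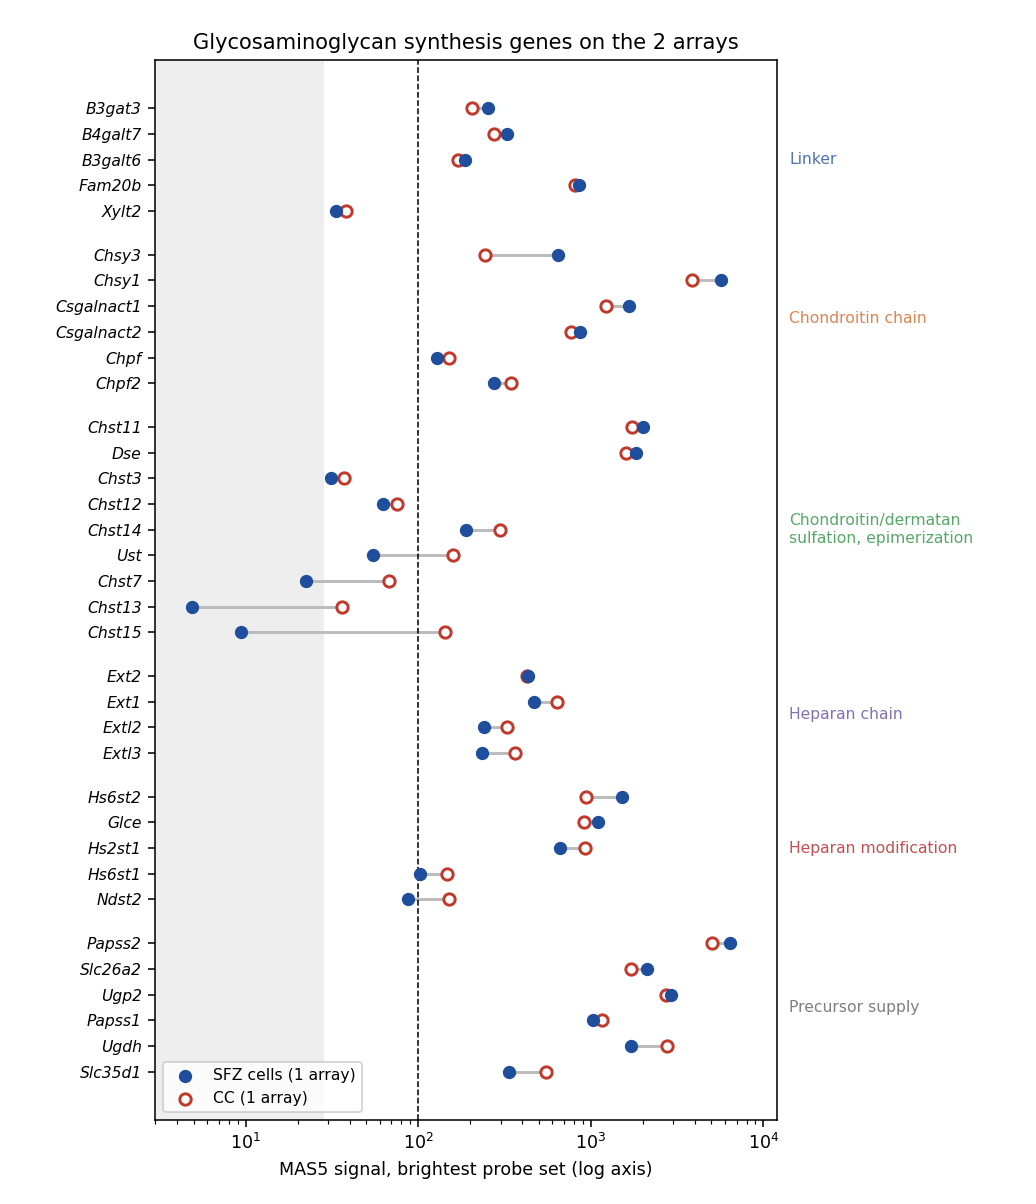
MAS5 signals of the 35 measured genes on the SFZ array (filled) and the CC array (open), 1 array each, on a log axis, with the genes grouped by role. The grey zone marks signals at or under the higher background level of 28.2, and the dashed line marks a signal of 100. *Chst7*, *Chst13* and *Chst15* have SFZ signals in the grey zone.

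The sequences before the start sites of 3 genes are shown. *Chst15* and *Ust* are the genes called higher in CC. *Chsy1*, a chondroitin synthase gene, had a higher signal in SFZ cells but was not called. The sequence of *Chsy3*, the only gene called higher in SFZ cells, is not shown. Each sequence is the 250 bases before an annotated start in RefSeq, build GRCm38.p6, printed 5′ to 3′ on the strand of the gene. They lie at chr7:132317027-132317276 (minus strand), 1 of 2 annotated starts of *Chst15*, at chr10:8518826-8519075 (minus strand) for *Ust* and at chr7:66109242-66109491 (plus strand) for *Chsy1*. Capitals mark the GC box, GGGCGG on either strand, and the E-box CACGTG.
Chst15: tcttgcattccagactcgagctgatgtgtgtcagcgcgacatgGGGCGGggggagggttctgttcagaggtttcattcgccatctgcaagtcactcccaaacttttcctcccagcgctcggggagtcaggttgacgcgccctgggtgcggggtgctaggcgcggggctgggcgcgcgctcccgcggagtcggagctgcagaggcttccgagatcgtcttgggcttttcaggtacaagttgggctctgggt
Ust: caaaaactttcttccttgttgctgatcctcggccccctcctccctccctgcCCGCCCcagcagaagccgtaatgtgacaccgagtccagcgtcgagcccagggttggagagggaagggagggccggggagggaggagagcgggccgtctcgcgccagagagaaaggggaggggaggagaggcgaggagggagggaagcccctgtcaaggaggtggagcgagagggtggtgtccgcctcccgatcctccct
Chsy1: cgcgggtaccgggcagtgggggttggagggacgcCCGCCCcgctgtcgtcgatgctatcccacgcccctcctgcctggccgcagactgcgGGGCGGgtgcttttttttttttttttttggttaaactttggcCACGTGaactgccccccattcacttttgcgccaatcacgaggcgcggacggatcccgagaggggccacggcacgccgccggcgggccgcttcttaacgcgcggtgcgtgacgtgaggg

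The GC box was present once in the windows of *Chst15* and *Ust*, and the window of *Chsy1* held 2 GC boxes and 1 CACGTG. Promoter windows were available for 30 of the genes, 38 windows in all, since some genes have several starts. These are not the 30 genes with a signal over 100, since *Xylt2*, *Chst3*, *Chst7*, *Chst12* and *Chst13* are among them. The windows of the set were thus not filtered by signal, unlike those of the brighter genes set beside them. The GC box was found in 26 of the 38 windows, or 68.4%, against 59.7% of 9502 windows of genes with a signal over 100 and 48.3% of 18109 windows of all genes. A GC content over 50% with a CpG ratio over 0.6 was met by 65.8% of the windows and by 64.2% of those of the brighter genes. CACGTG was found in 4 windows, those of *Chsy1*, *Chst14*, *Ext2* and *Extl2*, or 10.5% against 8.68%. Both strands were searched. A match is a run of letters and does not show that a factor binds there.

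Of the 5 linker genes 4 had a ratio above 1, by little on the brightest probe set, and none was called. *B4galt7*, encoding the enzyme that adds the first galactose, gave a signal of 325 from SFZ cells and 275 from CC. *B3galt6*, which adds the second galactose, was at 186 and 170, and *B3gat3*, which adds the glucuronic acid that completes the linker, was at 253 and 204. These 3 ratios, of 1.18, 1.09 and 1.24, correspond to log2 ratios of 0.24, 0.12 and 0.31, which are from under 1 to under 2 times the SD between probe sets. The second probe set of *B4galt7*, at 240 and 154, gave a larger ratio of 1.56, a log2 ratio of 0.64. *Fam20b*, the kinase that phosphorylates the linker xylose, was at 850.0 and 810.5, and its second probe set above background gave a ratio of 1.11. *Xylt2*, one of the enzymes that start the linker on the core protein, was at 33.4 and 38.4, both only just above background. Over the 5 linker genes the median log2 ratio was 0.12. The dimmer probe sets of *B3galt6* reached ratios up to 2.16 with SFZ signals under 100.

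In the chondroitin branch, 4 of 6 genes had a ratio over 1 and *Chsy3* alone was called. *Chsy3*, a chondroitin synthase, gave 645 from SFZ cells and 243 from CC, and the ratio was 2.65. This ratio exceeded those of 98.8% of the genes with a signal over 100. Its second probe set was under background on both arrays, so the value rests on 1 probe set. *Chsy1*, the synthase of the same activity that is needed for normal cartilage and digit joints in mice, was at 5673 and 3848, a ratio of 1.47, above 93.7% of genes. *Csgalnact1*, which adds the first N-acetylgalactosamine and so commits the linker to chondroitin, was at 1673 and 1230.5, and its second probe set gave a ratio of 1.23 in the same direction. *Csgalnact2*, of the same activity, was at 866 and 768, a log2 ratio of 0.17, within the SD between probe sets. *Chpf* and *Chpf2*, whose products work with the synthases in chain polymerization, were at 128 and 152 and at 277 and 345, and the ratio of *Chpf* passed to the other side of 1 after quantile normalization. The second probe set of *Chpf2* gave a ratio of 1.02. The median log2 ratio of the 6 genes was 0.31, against -0.21 for all genes.

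The genes that sulfate chondroitin and dermatan divided into some of nearly equal signal and others whose signal lay mainly in CC. *Chst11*, the main 4-O-sulfotransferase of cartilage chondroitin, whose loss in mice causes severe chondrodysplasia, gave 2008 from SFZ cells and 1745 from CC, and a second probe set gave a ratio of 1.54. *Dse*, the epimerase that turns chondroitin into dermatan, was at 1839 and 1603. Both ratios were 1.15, a log2 ratio of 0.20, about the SD between probe sets. *Chst14*, which adds 4-O-sulfate to dermatan, was at 189.6 and 299.6, a ratio of 0.633. *Chst12*, another 4-O-sulfotransferase, stayed under 100 on both arrays at 62.4 and 75.2, and so did *Chst3*, a 6-O-sulfotransferase of chondroitin, at 31.1 and 37.1. The signal of *Chst3* was close to background, so little can be read from its ratio.

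*Chst15*, which adds a second sulfate to N-acetylgalactosamine that already carries one and so makes the disulfated chondroitin type E, gave 9.40 from SFZ cells, under background, and 142 from CC. Against the background level it was at least 5.05-fold higher in CC. Its second probe set was at 11.9 and 48.1, also under background in SFZ cells, and had a CC signal under 100. *Ust*, the uronyl 2-O-sulfotransferase of chondroitin and dermatan, was at 54.4 and 159, a ratio of 0.342, and its second probe set was under background on both arrays. *Chst7*, a 6-O-sulfotransferase, was at 22.4 and 67.6, and was at least 2.40-fold higher in CC without reaching a signal of 100. *Chst13*, the third chondroitin 4-O-sulfotransferase, was at 4.91 and 36.2, which gives a difference of at least 1.29-fold only. The ratios of *Chst7*, *Chst13* and *Chst15* have no order, since their SFZ signals were under background. Over the 9 genes the median log2 ratio was -0.66, and -0.36 with signals raised to background.

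In the heparan branch 6 of 9 ratios were under 1, close to the 67.7% of all genes above background, and none was called. *Ext1*, which with *Ext2* encodes the heparan polymerase, was at 467 and 639, a ratio of 0.731. *Ext2* was at 431 and 426, a ratio of 1.01. On the brightest probe sets the subunits of the polymerase thus differed in ratio by 0.47 on the log2 scale. That is less than 2 times the SD of 0.29 given below for such differences. A dim second probe set of *Ext2*, at 31.1 and 37.4, gave a ratio of 0.832, toward CC like *Ext1*. *Extl3*, which adds the N-acetylglucosamine that commits the linker to heparan, was at 236 and 365, and *Extl2*, a related transferase that acts on the linker, was at 241 and 329. A second probe set of each gave 0.598 and 0.601, for *Extl3* with an SFZ signal under background. *Hs2st1*, the 2-O-sulfotransferase, was at 661 and 921, and its 4 probe sets gave ratios from 0.601 to 0.718. All 4 readings of *Hs2st1* thus lay toward CC. *Ndst2*, which removes acetyl groups and adds N-sulfate, was at 87.6 and 151, the lowest ratio of the branch at 0.579. The median log2 ratio of the 9 genes was -0.45, against -0.21 for all genes. After quantile normalization these were -0.24 and 0.02, whereas a common scaling factor cannot change the gap.

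The 6-O-sulfotransferases of heparan lay on opposite sides. *Hs6st2* gave 1508 from SFZ cells and 937 from CC, with a ratio of 1.61, above 95.4% of genes with a signal over 100, and its other probe set above background, at 240 and 128, gave 1.88. *Hs6st1* was at 102 and 147, a ratio of 0.693. *Glce*, the epimerase that turns glucuronic into iduronic acid, was also brighter in SFZ cells, at 1095 and 916, with 1.26 on a second probe set. These 2 genes and *Ext2* were the ones of the branch with a ratio over 1.

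**Figure D2:**
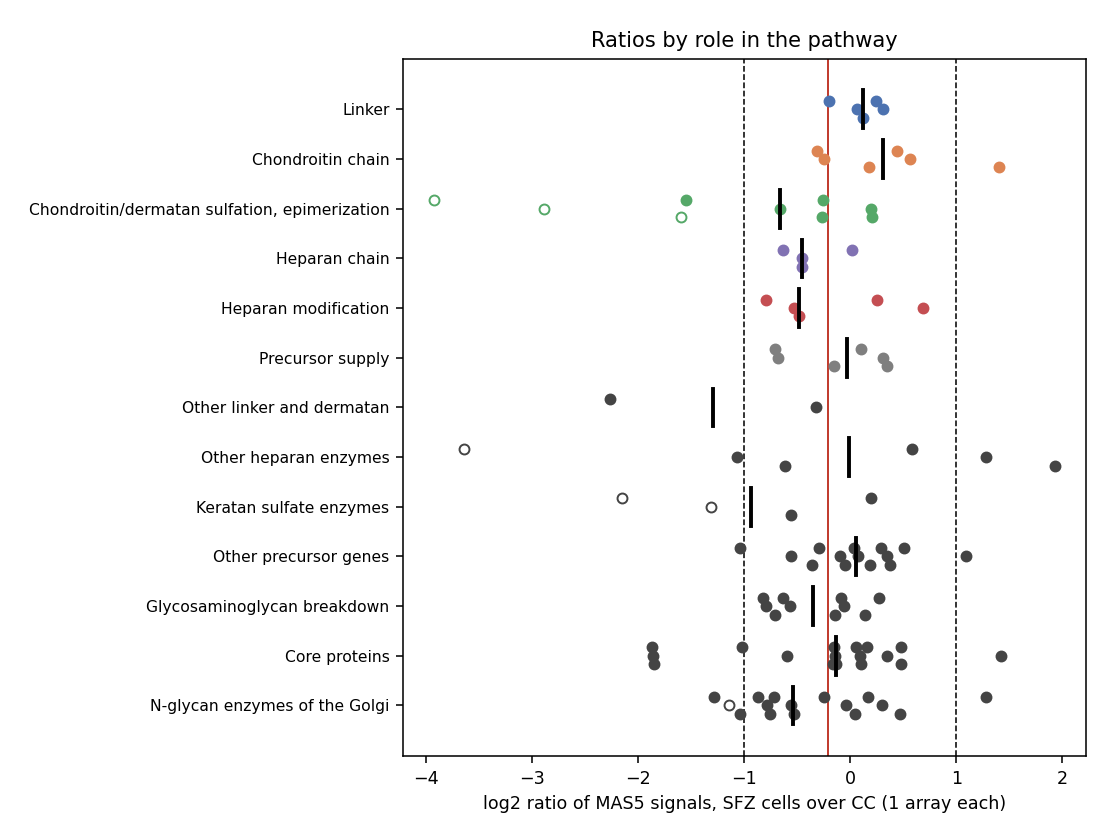
Log2 ratios of MAS5 signals, SFZ cells over CC, 1 array each, for genes above background on at least 1 array, grouped by role. Coloured points are the genes of the set and dark points are other genes of the pathway and of N-glycan synthesis. Open points have a signal at or under background on 1 array, so their place is not exact. Bars are list medians, the red line is the median of all genes at -0.21 and dashed lines stand at ratios of 2, higher in SFZ cells or in CC. The chondroitin chain genes have a median of 0.31 and the heparan chain genes of -0.45.

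Among genes that supply precursors, those of sulfate uptake and activation differed by at most 1.27-fold on the brightest probe set and none was called. *Papss2*, which makes the sulfate donor PAPS and whose loss stunts the skeleton in mice and humans, gave 6375 from SFZ cells and 5017 from CC, with a ratio of 1.27. Its other probe sets above background, at 2496 and 1595 and at 2522 and 1487, gave larger ratios of 1.56 and 1.70. *Papss1*, of the same activity, was at 1036 and 1155. *Slc26a2*, the sulfate transporter that is mutated in human diastrophic dysplasia, was at 2122 and 1716. Its 3 probe sets gave ratios from 1.20 to 1.24. Both *Slc26a2* and *Papss2* thus leaned toward SFZ cells on every probe set above background.

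The genes of UDP-sugar supply did not share that lean. *Ugp2*, which makes UDP-glucose, was at 2931 and 2737, and its 5 probe sets lay between 0.990 and 1.07. *Ugdh*, which oxidizes UDP-glucose to UDP-glucuronic acid, was at 1716.5 and 2758, a ratio of 0.622 on its only probe set. UDP-glucuronic acid is the donor of the glucuronic acid in chondroitin and heparan chains. *Slc35d1*, the Golgi and endoplasmic reticulum transporter for UDP-glucuronic acid and UDP-N-acetylgalactosamine that is needed for skeletal development in mice and humans, was at 337 and 551, a ratio of 0.612. A dim second probe set of *Slc35d1*, at 52.4 and 49.5, gave 1.06. Of the genes with a signal over 100, 17.4% had a lower ratio than *Ugdh* and 16.7% a lower ratio than *Slc35d1*.

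Different probe sets of a gene were compared next. Of the genes, 14 had 1 probe set and 21 had several, up to 5, and 60 of the 70 probe sets were above background on at least 1 array. In the 10 genes with at least 2 probe sets over 100 on both arrays, the median range of the log2 ratio was 0.24, against 0.20 over all such genes, and the largest was 0.42. Among these 10 genes *Ugp2* alone had ratios on both sides of 1, from 0.990 to 1.07. The second probe sets of *Slc35d1*, *Chpf2* and *Ext2* that crossed 1 had dim signals.

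**Figure D3:**
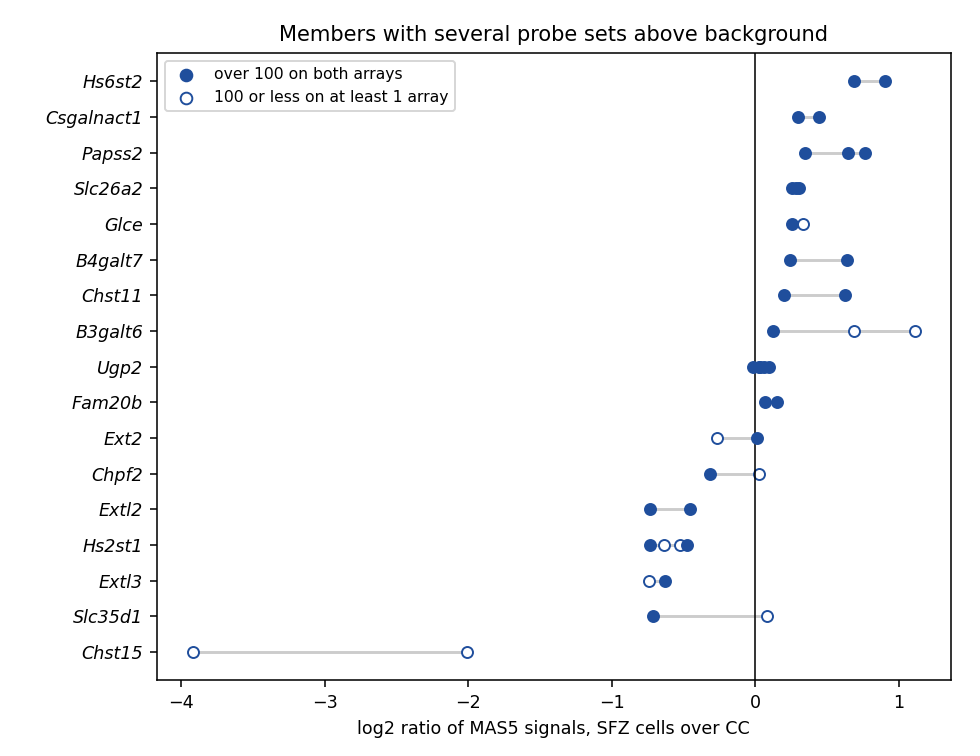
Log2 ratios, SFZ cells over CC, of each probe set above background for the genes that have several, 1 array per cell type. Filled points had signals over 100 on both arrays, and open points did not. The filled points of a gene lie within 0.42 of each other.

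Pairs of genes were compared by the difference of their log2 ratios, which a common scaling factor for each array does not change. Most pairs were isoenzymes, whereas *Ext1* and *Ext2* encode subunits of 1 polymerase and *Extl2* and *Extl3* related transferases. From the spread between probe sets, the SD of such a difference was 0.29. Of 10 pairs, 8 had signals over 100 for both genes, and 3 of these differed by more than 2 SD. The pairs were chosen after the values were seen, and the SD leaves out differences between animals and cultures. The count is therefore a description and not a test between the cell types. The ratio of *Hs6st2* was 2.32 times that of *Hs6st1*, a log2 difference of 1.22. *Chsy3* lay above *Chsy1*, with a log2 difference of -0.85 for *Chsy1* minus *Chsy3*. The largest of the 8 differences was outside the set, between the endosulfatases that remove 6-O-sulfate from heparan at the cell surface. *Sulf1* gave 583 from SFZ cells and 239 from CC, and *Sulf2* 658 and 1376, a log2 difference of 2.35. A dim probe set of *Sulf2* gave a ratio of 1.45, opposite to the other probe sets of the gene above background. *Papss2* over *Papss1* at 0.50, *Csgalnact1* over *Csgalnact2* at 0.27, *Extl2* over *Extl3* at 0.18, *Chpf* over *Chpf2* at 0.07 and *Ext1* over *Ext2* at -0.47 stayed within 2 SD. Quantile normalization does move these differences, to 1.11 for *Hs6st2* over *Hs6st1*, -0.998 for *Chsy1* over *Chsy3* and 0.38 for *Papss2* over *Papss1*.

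**Figure D4:**
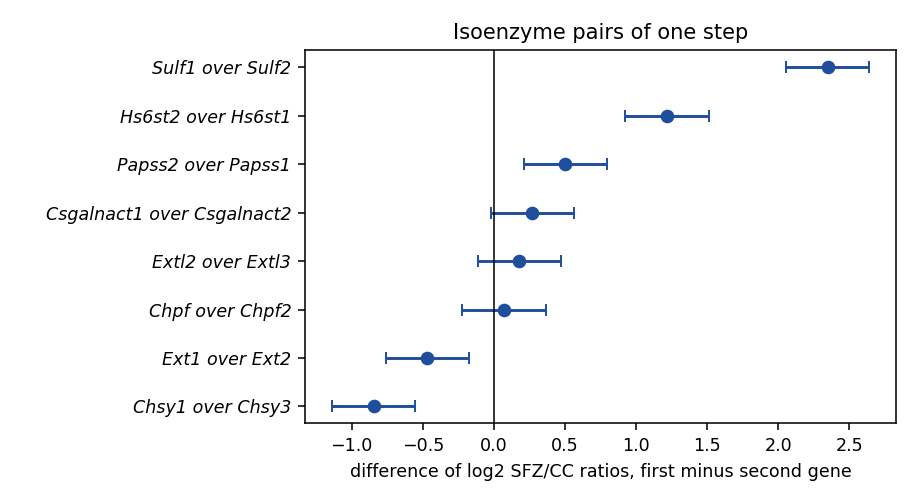
Difference of log2 SFZ/CC ratios within each pair of isoenzymes, subunits or related enzymes with signals over 100, first gene minus second. Error bars are 0.29, the SD of such a difference as estimated from different probe sets of the same gene, and do not cover biological replicates. The pair of *Hs6st2* and *Hs6st1* lies at 1.22 and that of *Sulf1* and *Sulf2* at 2.35.

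Counted by direction, 16 of the 30 genes with a signal over 100 had a ratio over 1, whereas 31.0% of all genes with such a signal did. After scaling to equal medians the counts were 17 of 30 against 48.7%, and after quantile normalization 18 of 30 against 52.3%. The distance from the background thus shrank with scaling, which shifted the median of all genes by 0.19 and 0.23 on the log2 scale. *Chst15*, *Ust* and *Ndst2* passed the limit of 100 on the CC array alone, with SFZ signals of 9.40, 54.4 and 87.6. Their ratios as deposited could therefore only be under 1, and the share of all genes holds genes that passed on 1 array in the same way. Nothing about the set is concluded from these counts. Among the 11 genes with a signal over 1000 on at least 1 array, a limit picked after the values were seen, 9 had a ratio over 1, against 33.6% of 2004 genes of that range. The exceptions were *Papss1* and *Ugdh*. After median scaling the count was 10 against 53.8%, and after quantile normalization 10 against 48.0%, with *Papss1* then over 1. The median log2 ratio of the 11 was 0.26, against -0.15 for the genes of that range. *Hs6st2* and *Glce* passed the limit on the SFZ array alone, with CC signals of 937 and 916, so their ratios could only be over 1. With that and a limit picked afterwards, nothing about the set is concluded from the count. Of the 15 chondrocyte markers 10 had a ratio over 1, with a median log2 ratio of 0.48, and their part in these counts was not tested.

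Other genes of glycosaminoglycan biology were taken as 6 further lists, with 63 of 68 genes measured. Of these, 4 were called higher in SFZ cells and 7 in CC, which is 9.09% and 15.9% of the 44 with a signal over 100, beside 2.38% and 11.0% of all such genes. In SFZ cells these were *Sulf1*, *Hs3st2*, a 3-O-sulfotransferase of heparan, at 122 and 32.1, *Gnpnat1*, of the pathway to UDP-N-acetylglucosamine, at 2226 and 1043, and the chondroitin sulfate proteoglycan gene *Cspg4* at 981 and 365. In CC they were *Sulf2*, *Pxylp1*, which removes the phosphate that FAM20B places on the linker, at 141 and 676, *Gfpt2*, of hexosamine synthesis, at 202 and 415, and 4 core protein genes. The core proteins were the large chondroitin sulfate proteoglycan versican, *Vcan*, at 231 and 840, the syndecans *Sdc1* at 213 and 772 and *Sdc2* at 1480 and 3008, and the glypican *Gpc3* at 426 and 1532. *Sdc1*, *Sdc2* and *Gpc3* carry heparan sulfate. Under either scaling *Sulf2*, *Gfpt2* and *Sdc2* were no longer called. The call of *Hs3st2* rests on 1 probe set, since its other probe set above background, at 39.7 and 25.2, gave a ratio of 1.58 and stayed under 100. *Acan*, the main chondroitin sulfate carrier of cartilage, was at 7772 and 5588 and was not called. None of the 10 measured genes of glycosaminoglycan breakdown was called, and 8 of these had a ratio under 1, beside 67.7% of all genes above background, with a median log2 ratio of -0.35. No gene of the keratan sulfate list had a signal over 100. As a list of other Golgi enzymes, 17 genes of N-glycan processing had a median log2 ratio of -0.54 over the 16 above background, with *Mgat4a* called higher in SFZ cells and *Man2a1* and *Fut8* in CC. These are 1 and 2 of the 15 with a signal over 100, to be read beside 2.38% and 11.0% of all such genes. The log2 ratio of *Fut8* was -1.03, and median scaling, which moved every log2 ratio by 0.19, takes it inside the 2-fold limit.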

How the data were processed

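Total RNA, 100 ng from each of SFZ cells and CC, was labelled and hybridized to Affymetrix Mouse Genome arrays, 1 per cell type. The authors deposited MAS5 intensity values, 1 linear signal per probe set. The submitters' processing notes give MAS5 as the tool. Which version and which scaling target they chose was not given in the sources. The signals were not scaled further. The 64 control probe sets were left out. Gene names came from the annotation of the platform, where 34945 had 1 gene, 932 had several and 9160 were unnamed here, and Entrez identifiers of 34741 matched RefSeq (GRCm38.p6) with 0 symbols changed. The array names no genome build, so coordinates are given only for the RefSeq promoter windows.

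Background was set at the 95th percentile over 84 probe sets of chemosensory receptors. For a dimmer signal not above it, the fold is a lower bound against it. Medians cover genes above background on at least 1 array. All genes of the set were named, and of the other lists those past the thresholds, at most 3 in each direction of a list. *Acan* and the fourth core protein were named after their values were seen, and the pairs of genes were chosen then too. The genes and lists were chosen with earlier results of these arrays known. The calling was tested on simulated data, with changes planted only in genes brighter than *Chst15* and *Ust*. The noise was the spread between probe sets, so differences between cultures were not covered. Alternatives were 2 scalings, 2 treatments of low signals, a background at the 99th percentile, 4 rules for the probe sets of a gene and 4 other thresholds. The number of arrays limits the precision. Python 3.11.15, numpy 2.4.6, pandas 2.3.3 and matplotlib 3.10.9 were used.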

Additional observations from a re-analysis of the deposited data

How the results depend on the processing

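No paired analysis was possible because each cell type had 1 array. The same genes, *Chsy3* in SFZ cells and *Chst15* and *Ust* in CC, were called after median scaling and after quantile normalization. With 64 added to both signals 1 gene, *Chst15*, was called in CC. Taking each gene at the median of its probe sets, or asking all its probe sets to pass, left 0 in either cell type. The second probe sets of *Chsy3* and *Ust* were under background and that of *Chst15* was at 48.1 in CC. A ratio over 1.5 gave 2 (SFZ) and 7 (CC), where all genes gave 527 and 1901. A ratio over 3 gave 0 and 1, of 81 and 524, and a signal over 200 gave 0 in CC, of 680. The median log2 ratio of the genes became 0.050 after quantile normalization, where that of all genes was 0.02. Under median scaling 1 gene, *Papss1*, moved to the other side of a ratio of 1, and under quantile normalization 4 did, *Chpf*, *Chst12*, *Papss1* and *Xylt2*.

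Of the other pathway genes, 4 in SFZ cells became 2 with the median of probe sets, 1 for ratios over 3 and 1 when all probe sets were asked to pass. The 7 in CC became 4 with either scaling, with 64 added and for ratios over 3, 12 for ratios over 1.5, and 2 when all probe sets were asked to pass. Without shared or variant probe sets the counts were 3 in SFZ cells and 6 in CC. Median scaling moved every log2 ratio by 0.19, which carried *Sulf2*, *Gfpt2* and *Sdc2* inside the 2-fold limit. A background at the 99th percentile cannot change a ratio or a call. Genes with SFZ signals under background, *Chst7*, *Chst13* and *Chst15*, have no exact ratio at this signal.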
